A study of Homo sapiens with 12 samples.

Results

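Wild-type DROSHA was set against an empty plasmid in DROSHA-KO HCT116, a line of human colorectal carcinoma cells that lacks the DROSHA gene product by knockout. The comparison uses 6 of the 12 small RNA libraries of the series, chosen by their labelled transfection: 3 libraries with the pCK empty plasmid and 3 with the pCK-DROSHA wild type plasmid. All 6 libraries came from DROSHA-KO cells that also received the plasmid pXC-NLS-DG4, 4.5 µg per the labels' protocols, as was the pCK-DROSHA plasmid. The labels do not say what pXC-NLS-DG4 codes for, how much empty plasmid was used, how long the cells were kept after transfection, what share of them took up the plasmids or whether the knockout line is 1 clone. Small RNA of 19 to 24 nt was sequenced, so the files hold miRNAs and no measure of DROSHA itself. The repeats are numbered 1 to 3 without a statement that they are separate cultures, so p-values measure a spread between libraries that may be technical. For the main test of each miRNA, that spread was estimated over all 12 libraries of the series.

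DROSHA is the nuclear RNase III enzyme that, with its partner DGCR8, cuts the hairpin of a primary miRNA transcript. DICER then cuts the hairpin in the cytoplasm, and 1 arm is loaded into an Argonaute protein, which finds its target mRNAs mainly through the seed, bases 2 to 8 of the mature miRNA. Some hairpins do not need DROSHA: those of mirtrons are released when their intron is spliced out, and those of miR-320a and miR-484 are made directly at a transcription start and carry a cap. Loss of DROSHA is therefore known to remove most miRNAs and to leave these few.

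The sequences below, from RefSeq on GRCh38.p14, show risen miRNAs that were abundant when DROSHA was supplied. They are written 5′ to 3′ with the seed in capitals.
miR-21-5p: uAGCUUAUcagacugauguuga
let-7i-5p: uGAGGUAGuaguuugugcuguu
miR-7-5p: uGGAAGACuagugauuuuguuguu
miR-10a-5p: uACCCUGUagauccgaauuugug
miR-100-5p: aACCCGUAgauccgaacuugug
miR-222-3p: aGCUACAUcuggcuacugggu
miR-182-5p: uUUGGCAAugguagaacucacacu
miR-30a-5p: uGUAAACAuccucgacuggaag
The next set holds miRNAs that were abundant with either plasmid, again with the seed in capitals. miR-320a-3p, the most abundant miRNA with the empty plasmid, is named only.
miR-3615: uCUCUCGGcuccucgcggcuc
miR-7706: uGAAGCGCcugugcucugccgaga
miR-7974: aGGCUGUGaugcucuccugagccc
miR-484: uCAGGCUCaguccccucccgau
miR-1292-5p: uGGGAACGgguuccggcagacgcug
miR-4741: cGGGCUGUccggaggggucggcu
Mature miRNAs whose end lies at the end of an intron are shown with the outermost pair of bases of that intron in capitals, the GU that opens or the AG that closes most introns.
miR-877-5p: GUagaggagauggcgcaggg
miR-1224-5p: GUgaggacucgggaggugg
miR-6807-5p: GUgagccaguggaauggagagg
miR-1226-3p: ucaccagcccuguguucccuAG
miR-1229-3p: cucucaccacugcccucccacAG
miR-6868-3p: uuccuucuguugucugugcAG
miR-943: cugacuguugccguccuccAG
miR-5010-3p: uuuugugucucccauuccccAG

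With the empty plasmid, nearly all miRNA reads belonged to a few hairpins. The 14 hairpins of the DROSHA-independent list (miR-320a to e, miR-484 and mirtrons such as miR-877 and miR-1224) held 79.3%, 80.8% and 83.8% of the reads in the 3 empty libraries, and 33.6%, 28.6% and 48.0% with wild type. Every wild type library was below every empty one, and the DROSHA-independent share of reads differed by -44.5 percentage points between the means (two-sided exact permutation p = 0.1, the smallest that 3 against 3 can give). miR-320a-3p alone took 46.5%, 47.5% and 48.9% of the reads without DROSHA and 19.9%, 17.1% and 28.2% with it. In the other direction, miR-21-5p, a miRNA abundant in many carcinomas, went from 1.31%, 1.26% and 1.04% of the reads to 27.4%, 32.8% and 19.5%. The let-7 family, known to repress LIN28 and RAS genes, went from 0.432%, 0.430% and 0.322% to 10.5%, 9.55% and 8.39%. In the empty libraries 6, 7 and 5 miRNAs together held 90% of the reads, and in the wild type libraries 23, 24 and 23. Shares of 1 library sum to 100%, so a fall of one share alone does not show a lower level. With the 3 most abundant other miRNAs (miR-21-5p, miR-3615 and let-7i-5p) left out of the total, the difference was -29.5 points.

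**Figure D1:**
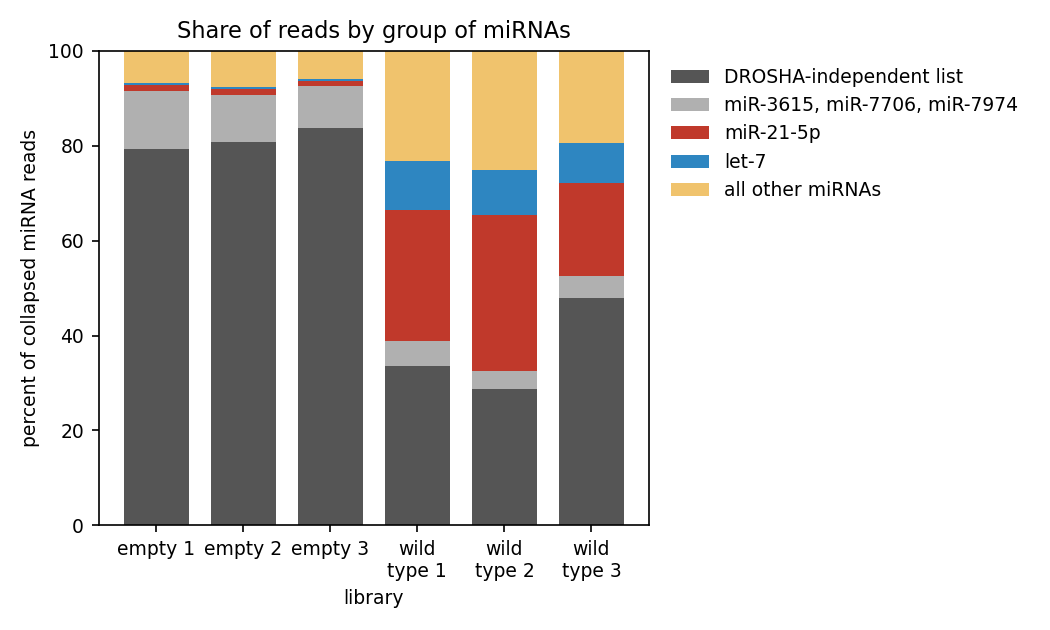
Percent of collapsed miRNA reads (vertical axis) held by 5 groups of miRNAs in each of the 6 libraries (bars). The DROSHA-independent hairpins fill 79.3% to 83.8% of the bar in the empty libraries and 28.6% to 48.0% in the wild type libraries, where miR-21-5p and let-7 take up 19.5% to 32.8% and 8.39% to 10.5%.

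Levels below are scaled reads, the count divided by a size factor taken from 5 DROSHA-independent features (miR-1226, miR-1224, miR-877, miR-484 and the summed miR-320). Their own log2 changes lay between -0.38 and 0.39, which the scaling keeps small by construction. Mature miRNAs are counted whole and have nearly the same length, so no value is divided by length. The 6 libraries held 174323 to 284290 reads after lines for the same miRNA were collapsed, over 670 to 750 miRNAs each. All pairs of libraries within a group differed by more than sampling noise. The edgeR quasi-likelihood test was run on 310 miRNAs, and a miRNA is called risen or fallen at a Benjamini-Hochberg adjusted p under 0.05. With wild type, 132 rose (42.6% of those tested) and 2 fell (0.645%), 43.2% in all. A miRNA could pass the filter on low counts through any 1 of the 4 groups of the series, so these shares hold only for the miRNAs tested. The median log2 change was 0.72 over all 310 and 4.24 over the 132 risen. With 3 miRNAs without an empty read set to a limit of 3 reads over the empty group, the latter was 4.23. All 3 wild type libraries lay above all 3 empty ones for 144 miRNAs (46.5%) and below them for 18 (5.81%). In these bulk libraries, fewer cells with the plasmid and less DROSHA product per cell cannot be told apart.

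The summed level of the risen miRNAs was far higher with wild type, with miR-21-5p as its largest part. Summed over the 132, scaled reads were 7305, 6131 and 5534 with the empty plasmid and 197974, 203411 and 108270 with wild type, a 26.9-fold ratio of means. The 3 wild type libraries did not rise equally: replicate 3 was the lowest of the 3 for 116 of the 132. Relative to the mean of the empty libraries the summed level was 31.3-fold, 32.2-fold and 17.1-fold in wild type replicates 1, 2 and 3. The median log2 level against the empty mean was 4.32, 4.26 and 3.58. Replicate 3 also had the largest share of DROSHA-independent reads, 48.0%. The risen miRNAs had 3393, 3544 and 2017 reads per 100 reads of the 39 miRNAs that stayed within 2-fold between the groups, again lowest in replicate 3. Both sets were chosen by the scaled fit. Without this library 141 of 353 tested miRNAs rose.

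**Figure D2:**
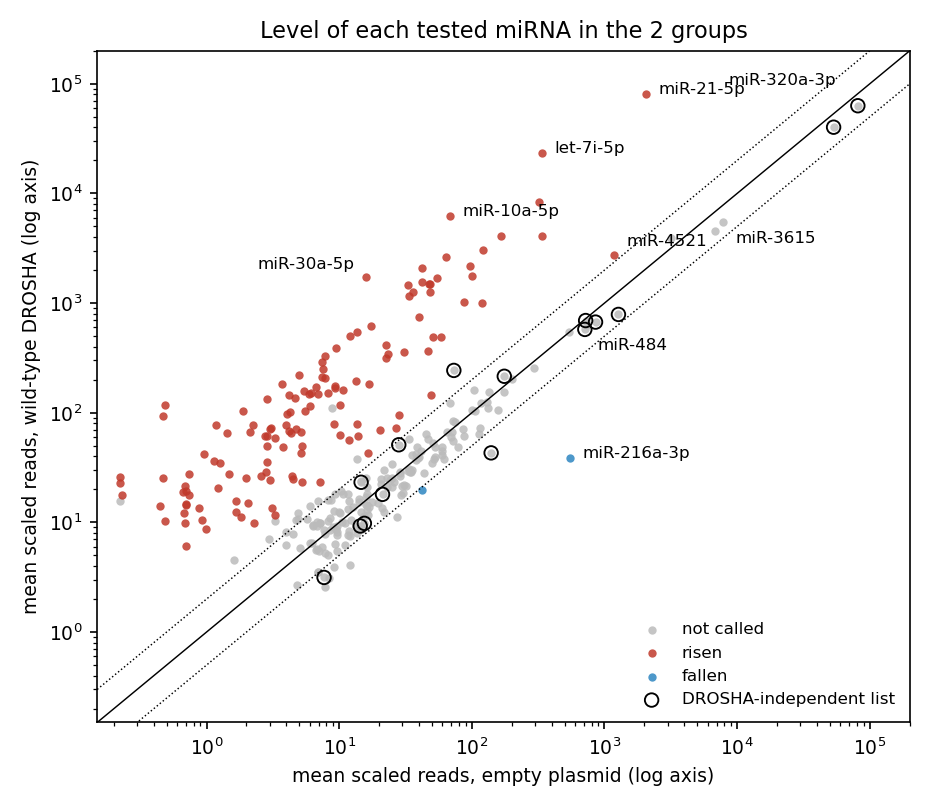
Mean scaled reads of each of the 310 tested miRNAs, empty plasmid on the horizontal and wild-type DROSHA on the vertical axis (both log), coloured by call, with the DROSHA-independent list circled. The solid line marks equal levels and the dotted lines a 2-fold difference. The 132 risen miRNAs form a cloud above the upper dotted line, while miR-320a-3p, miR-3615 and miR-484 lie near the solid line.

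Among the miRNAs that came back, the abundant ones separated cleanly between the groups. miR-21-5p (MIR21, in an exon of VMP1, mature sequence at chr17:59841273-59841294, plus strand) stood at 2466, 1780 and 1912 scaled reads with the empty plasmid. With wild type it stood at 92757, 102758 and 47335, the lowest wild type value being far above the highest empty one. let-7i-5p (MIRLET7I, chr12:62603691-62603712, plus strand) went from 417, 291 and 298 to 29934, 24201 and 16381. Of the 10 miRNAs highest with wild type, these and 4 more had risen, against 42.6% of all tested. A ranking by the wild type level favours risen miRNAs.

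miR-7-5p, which several hairpins encode and which is known to repress EGFR, had 387, 299 and 275 scaled reads without DROSHA. It had 10460, 9537 and 5015 with it, a log2 change of 4.70 (SE 0.38, edgeR adjusted p = 4.58e-19). miR-10a-5p, encoded between the HOXB genes, went from 74.5, 66.8 and 63.1 to 7343, 7631 and 3683. The groups did not overlap for either miRNA, and wild type replicate 3 was again the lowest of its group. miR-100-5p, a repressor of MTOR, went from 408, 285 and 318 to 4378, 5240 and 2754, a smaller rise of 3.61 (SE 0.36, adjusted p = 1.48e-14).

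The largest rises among miRNAs with at least 100 scaled reads were found for miR-96-5p, miR-30a-5p, miR-10a-5p, let-7i-5p, miR-99b-3p, miR-182-5p, miR-23a-3p and miR-224-5p. miR-96-5p, of the miR-183 cluster that is active in sensory cells and raised in carcinomas, had 1, 1 and 0 reads in the empty libraries and 131, 75 and 55 with wild type. The ratio of scaled reads was 244, with an exact 95% counting interval of 66.9 to 2027 that covers counting error only. miR-30a-5p (MIR30A, in an intron of LINC00472) went from 12.8, 22.3 and 12.6 to 1359, 2529 and 1263 scaled reads. Its level in wild type replicate 2 was the highest by a wide margin, and the groups did not overlap. miR-99b-3p rose from 2.26, 2.09 and 1.33 to 108, 122 and 78.9 (5.69, SE 0.51, adjusted p = 6.05e-17). miR-224-5p, from the GABRE gene, rose from 3.01, 4.87 and 0.664 to 156, 148 and 95.8 (5.50, SE 0.48, adjusted p = 4.69e-17).

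**Figure D3:**
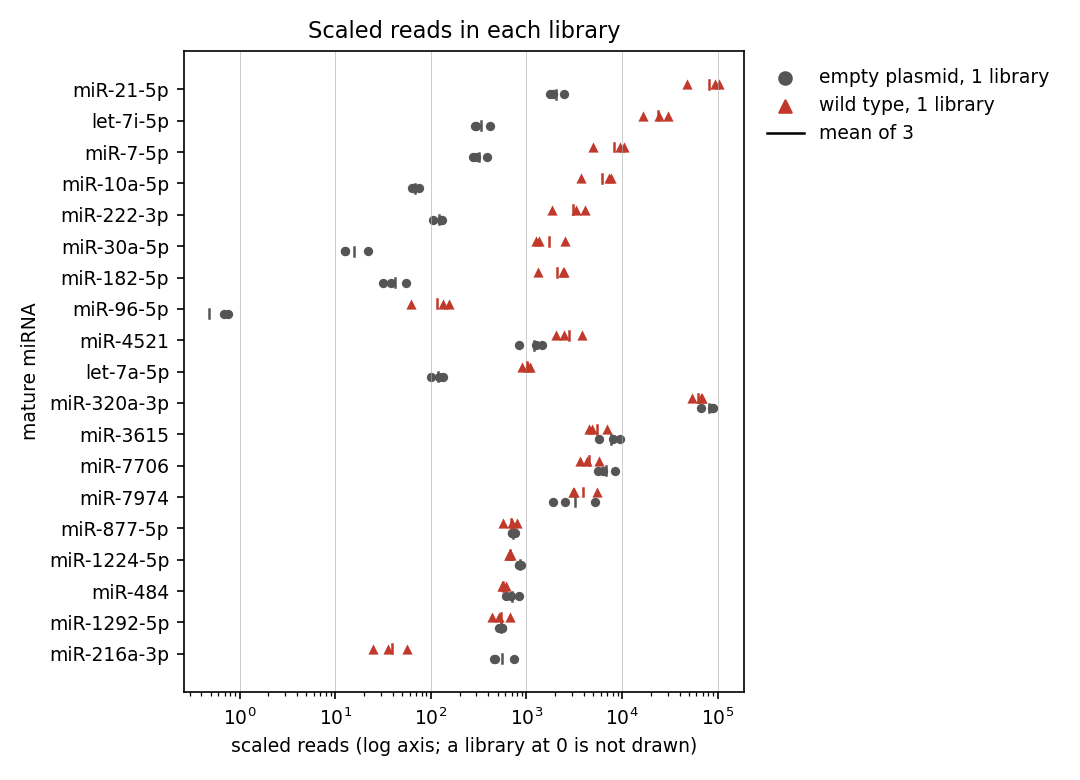
Scaled reads (horizontal, log axis) of 19 miRNAs in each of the 6 libraries (points), with group means as short vertical lines. From miR-21-5p to miR-96-5p and in let-7a-5p the empty and wild type points lie far apart, and from miR-320a-3p to miR-1292-5p they lie close together. For miR-96-5p 1 empty library is at 0 and is not drawn.

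Some miRNAs had no read at all without DROSHA. Among all 1277 miRNAs counted, 31 had reads in every wild type library while all 3 empty libraries had none. The reverse was seen for 13, with at most 7 reads in total. Of the 31, only 3 passed the filter and were tested. miR-34a-5p, which p53 induces, had 19, 13 and 11 reads with wild type. Its mean scaled level was 27.7 times a limit of 3 reads over the empty group. miR-503-5p, which represses cyclins, had 12, 9 and 11 reads and a mean of 20.3 times that limit. miR-129-5p had 8, 3 and 3 reads and a mean of 8.68 times that limit. These ratios leave out the counting error of the wild type reads. The other 28 of the 31 were too low to be tested.

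Without DROSHA the risen miRNAs were low but most were still read. A total of 129 of the 132 had a read in at least 1 empty library (15 of them 1 to 3 reads in total). Their fitted level with the empty plasmid was a median of 5.36% of that with wild type, from 0.502% to 43.0%. The level was under 2% for 9 miRNAs, 2% to 5% for 53, 5% to 10% for 34, 10% to 25% for 24 and 25% to 50% for 9. miR-21-5p kept 2.54%, let-7i-5p 1.43%, miR-10a-5p 1.10% and miR-30a-5p 0.933%. The source of the reads left in the empty libraries was not tested.

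The rises that were smallest for abundant miRNAs were those of miR-4521, miR-423-5p, miR-25-3p, miR-92a-3p and let-7a-5p. miR-4521 (MIR4521, chr17:8186948-8186969, plus strand), whose function is less well known, had 1270, 1452 and 843 scaled reads without DROSHA and 2460, 3788 and 2043 with it. Its groups did not overlap, but the rise of 1.22 (SE 0.35, adjusted p = 0.00242) fell to 0.92 with an adjusted p of 0.050 without wild type replicate 2. It was not called under edgeR's TMM (0.30), DESeq2's median ratios (0.54) or total reads (0.36).
miR-4521: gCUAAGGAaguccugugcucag
miR-423-5p went from 34.6, 69.5 and 42.5 to 122, 165 and 148, and kept 33.8% of its wild type level in the empty libraries. It was not called with total reads as the scale (0.72).

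Within the let-7 family the level kept without DROSHA differed between members. let-7a-5p stood at 122, 136 and 99.6 scaled reads with the empty plasmid and at 1027, 1090 and 893 with wild type, so that 11.9% of its level was kept. let-7f-5p kept 5.74%, let-7g-5p 3.22% and let-7i-5p 1.43%. No test of the difference between these members was run. Their sequences are nearly the same, so the division of reads between them is uncertain. miR-25-3p, encoded in an MCM7 intron, went from 63.2, 45.2 and 32.5 to 478, 354 and 254. miR-92a-3p went from 66.9, 58.4 and 51.8 to 586, 532 and 354 and kept 12.1%. Both share the seed AUUGCAC with miR-92b-3p.

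What stayed at a like level without DROSHA was defined by the interval and not by a missed call: a miRNA was placed within 2-fold where it was not called and its 95% interval lay between -1 and 1 on the log2 scale. This held for 39 of 310 miRNAs (12.6%), while 137 more were neither called nor within 2-fold. Summed over the 39, scaled reads were 6475, 5662 and 6215 with the empty plasmid and 5835, 5740 and 5367 with wild type. The 39 include members of the reference, which pulls their changes toward 0. Without empty replicate 1, 2 or 3 the number was 24 of 347, 22 of 356 or 25 of 347 tested. Without wild type replicate 2 the number was 22 of 354. It also depends on the scale: 8, 14 and 3 under TMM, DESeq2's median ratios and total reads, and 10 with the summed reference.

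miR-1292-5p, in the snoRNA host gene NOP56 (chr20:2652779-2652803, plus strand), had 561, 517 and 551 scaled reads with the empty plasmid. With wild type it had 668, 434 and 516, and the groups overlapped (-0.01, SE 0.31, adjusted p = 0.981). It is not on the DROSHA-independent list. Other abundant miRNAs within 2-fold outside the list were miR-10399-3p in ZC3HAV1 (753, 679 and 787 against 592, 696 and 596), miR-3928-3p (371, 225 and 289 against 274, 257 and 239) and miR-1843 in COP1 (266, 186 and 148 against 238, 182 and 185). All 3 had overlapping groups. These 4 miRNAs fell under TMM scaling, and all but miR-1843 under total reads.

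On the DROSHA-independent list 15 of 21 counted miRNAs were tested and 0 rose or fell (median -0.35), a count that the scaling largely sets; 2 had an unadjusted p under 0.05, and DESeq2 called 1 higher and 1 lower. miR-1224-5p, a mirtron of VWA5B2, had 845, 839 and 884 scaled reads without DROSHA and 662, 691 and 660 with it. The 2 groups did not overlap, with the wild type libraries lower (-0.35, SE 0.31, adjusted p = 0.417). miR-877-5p, a mirtron of ABCF1, had 700, 756 and 707 against 564, 712 and 803, with overlapping groups. miR-484, at the transcription start of NDE1, had 833, 615 and 685 against 605, 563 and 558, with the wild type libraries lower.

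The members of the miR-320 family did not all behave alike. miR-320a-3p stood at 87313, 66918 and 89476 against 67166, 53521 and 68431 scaled reads, and miR-320b at 56988, 43088 and 59933 against 42906, 33224 and 44387. For both the groups overlapped. miR-320c was lower in every wild type library (1341, 1170 and 1311 against 861, 658 and 845), with an adjusted p of 0.0705 by edgeR and 0.0443 by DESeq2. miR-320d was higher in every wild type library, at 38.4, 85.5 and 95.6 against 331, 97.1 and 302, with a log2 change of 1.73 (SE 0.66, adjusted p = 0.0572). It was called by DESeq2 (adjusted p = 0.0200), in the fit of the 6 libraries alone (adjusted p = 0.000748) and without wild type replicate 2 (adjusted p = 0.00420). miR-320e varied within each group more than between them, from 3.48 to 399 with the empty plasmid and from 1.19 to 126 with wild type. These sequences are nearly the same, so the division of reads between the members is uncertain.

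miR-3615, miR-7706 and miR-7974 were the other abundant miRNAs that stayed, with 8.90% to 12.3% of the reads without DROSHA and 3.91% to 5.35% with it. miR-3615 (chr17:74748663-74748683, plus strand) had 9471, 5754 and 8055 scaled reads against 6942, 4878 and 4484. miR-7706, in an exon of AKAP13 (chr15:85380639-85380662, plus strand), had 8349, 5626 and 6351 against 5686, 4290 and 3670. miR-7974 had 5178, 2505 and 1897 against 5471, 3101 and 3150. The groups overlapped for all 3 and none was called, but their intervals reach beyond 2-fold. Of the 10 most abundant miRNAs with the empty plasmid 8 were not called and 2, miR-21-5p and miR-4521, rose. Among the 100 most abundant, 28 rose when ranked with the empty plasmid and 72 when ranked with wild type.

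Only miR-216a-3p and miR-3614-5p were called lower. miR-216a-3p, a miRNA known from the pancreas, had 733, 466 and 455 scaled reads with the empty plasmid and 55.9, 36 and 24.8 with wild type, every wild type library being far below every empty one. The change was -3.82 (SE 0.61, adjusted p = 8.04e-05). The other arm of the hairpin, miR-216a-5p, averaged 9.52 against 8.69 and was not called (-0.12).
miR-216a-3p: uCACAGUGgucucugggauuau
miR-3614-5p, from TRIM25, had 70.7, 23.6 and 32.5 against 26.2, 12.6 and 20.3, and the groups overlapped (-1.07, SE 0.41, adjusted p = 0.0267). That call was lost without empty replicate 1 (-0.49), without wild type replicate 2 (-0.86) or 3 (-1.08), and with DESeq2 (adjusted p = 0.0522). Without wild type replicate 1 there were 7 falls among 345 tested miRNAs. Without wild type replicate 2 or 3 there was 1, among 354 or 353 tested.

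None of the tested miRNAs at intron ends, the position of mirtrons, rose. GENCODE 29 and RefSeq gave a position for 271 of the 310 tested miRNAs, of which 44.3% rose. For 33 of them the mature miRNA ended within 2 bases of the end of an annotated intron (5p arms at its start, 3p arms at its end), 29 of the 33 exactly at it. Of these 33 in 30 host genes, 0 rose and 0 fell, with a median log2 change of -0.15 and a range of -1.23 to 0.85. Only 1 of the 33 had an unadjusted p under 0.05, and DESeq2 called 0. By the interval rule 6 were within 2-fold, and the intervals of the other 27 reach beyond it. The count of rises was 0 under each of the 5 other scalings, whereas 18 fell under TMM, 10 under DESeq2's median ratios and 13 under total reads.

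Of the 33, 9 are on the DROSHA-independent list, whose members set the scaling. The other 24 had 0 risen, 0 fallen and a median of -0.13 (range -1.23 to 0.68). The highest of the 24 with wild type was miR-6868-3p, at the end of an EXOC7 intron (chr17:76098019-76098039, minus strand), with a mean of 52.8 scaled reads without DROSHA and 48.3 with it. miR-5010-3p, in ATP6V0A1, averaged 25.2 and 34.0, miR-943 in NELFA 14.6 and 23.7, and miR-6807-5p in TRIM28 25.9 and 23.3. Without empty replicate 1 miR-1226-3p was called higher (1.21). Without empty replicate 2 miR-6808-3p fell, and without wild type replicate 1 miR-6808-3p and miR-1236-3p fell. The tolerance was chosen after values had been seen, and with 0 or 5 bases the number risen was 0 of 29 and 0 of 33.

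The sequences shown above carry the letters of intron ends. Of 7 tested 5p arms at an intron start 6 began with GU, against 8 of all 158 tested 5p arms (5.06%) and 0 of 73 risen ones. Of 26 tested 3p arms at an intron end 23 ended with AG, against 27 of all 113 tested 3p arms (23.9%) and 2 of 47 risen ones (4.26%). Among all counted miRNAs with a position, 181 of 1140 (15.9%) had their mature end at an intron end, and 148 of the 181 did not pass the filter. These matches describe the sequences and were not tested. The miRNAs were picked by their place at intron ends. Most introns open with GU and close with AG, so such matches follow from that choice. As 0 of the 33 rose, the risen arms hold none of them.

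For 10 tested miRNAs the hairpin began within 50 bases of an annotated transcript start. Here 3 rose and 7 were not called. miR-484, miR-3615, miR-7706 and miR-4741 (in RBBP8, 175 against 154 scaled reads on average) were among the 7, together with miR-4444, miR-3917 and miR-4785. The 3 that rose were miR-330-5p, miR-330-3p (1.5, 0.695 and 1.33 against 127, 61.2 and 45.1) and miR-452-5p (3.27). With 200 bases in place of 50, 15 of 36 rose, a share near that of all miRNAs with a position, and with 20 bases 3 of 6. At neither position lay 228 miRNAs, of which 117 rose.

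**Figure D4:**
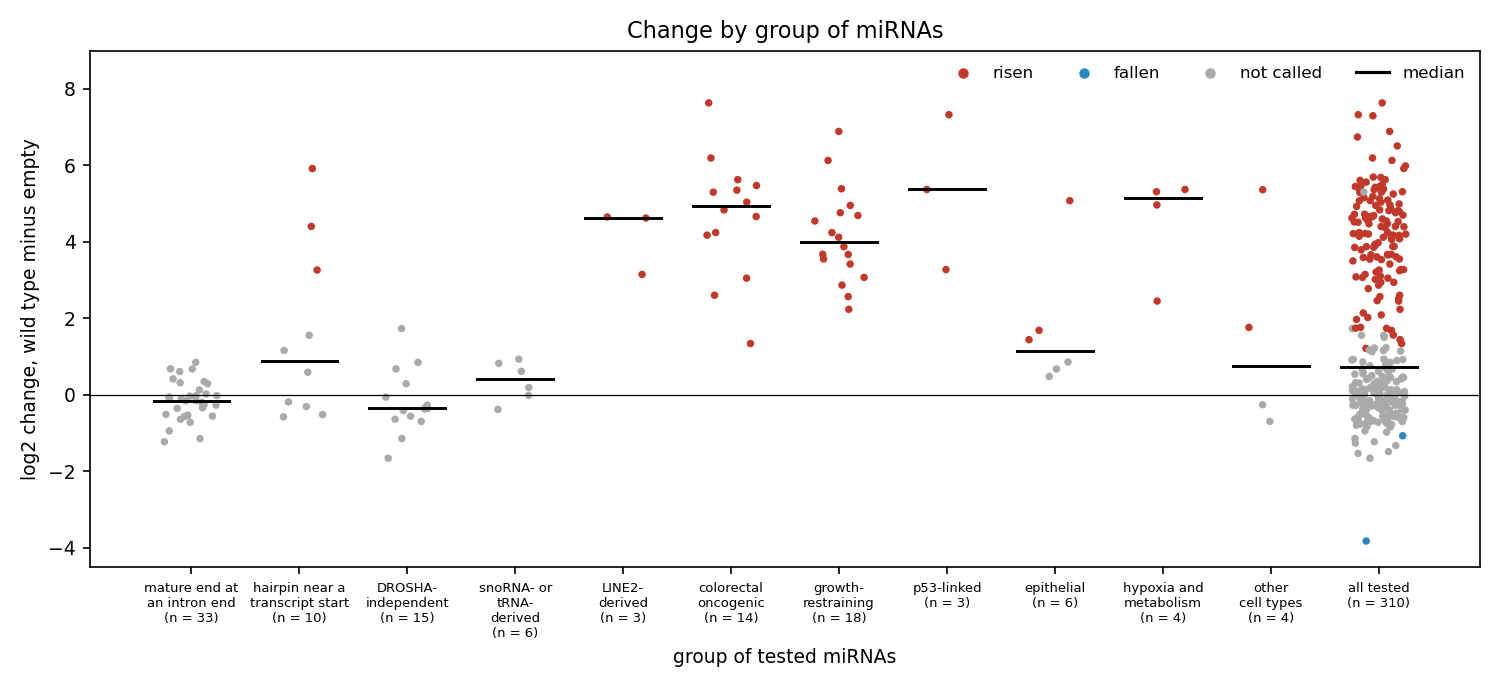
Log2 change, wild type minus empty (vertical axis), of each tested miRNA (points, coloured by call) in 11 groups and over all 310, with the median as a bar. The 33 miRNAs at intron ends lie between -1.23 and 0.85 with 0 called, the 14 of the colorectal oncogenic list lie between 1.34 and 7.64 and all are called risen.

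The 5p and 3p arms of 1 hairpin were often called alike. Both arms were tested for 37 hairpins: both rose for 20, neither was called for 13, and for 19 of the 37 the arms were within 1 on the log2 scale. Over all 310 tested, 132 rose and 176 were not called. Both arms had to pass the filter, and whether they are alike more often than these shares would give was not tested. Only 1 arm rose for mir-200a, mir-30b and mir-30c-1. In mir-30c-1 the miR-30c-5p arm rose by 4.4 (log2), from 6.98 to 150 scaled reads, and miR-30c-1-3p went from 8.24 to 16.1 without a call (0.93). In mir-222 both arms rose, miR-222-3p by 4.67 and miR-222-5p by 1.34. The difference between arms was not tested here.

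Neighbouring hairpins, which are often cut from 1 transcript, were also often called alike. With hairpins within 10 kb on 1 strand taken as a cluster, 18 clusters held 51 tested miRNAs, of which 45 rose, while 75 of 220 outside clusters rose. Every tested miRNA rose in 14 clusters. Over all tested miRNAs with a position 44.3% rose. Whether members of 1 cluster were called alike more often than these shares would give was not tested. The miR-182, miR-96 and miR-183 cluster rose by 5.48 to 7.64, and the miR-23b, miR-27b and miR-24 cluster by 4.88 to 5.29. The one cluster with none risen was that of miR-6511a-3p and miR-6770-3p, both at intron ends in NPIPA1. Members of 1 cluster are not independent of each other, and a miRNA with several hairpins was placed at 1 of them.

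The other 3 clusters were mixed. In that of miR-200b, miR-200a and miR-429, which repress ZEB1 and ZEB2, miR-200b-3p went from 32.3, 22.3 and 25.2 to 96.3, 68.4 and 53 scaled reads (1.44, SE 0.40, adjusted p = 0.00156) and miR-200a-5p rose by 1.69. miR-200a-3p (0.68) and miR-429 (0.86) were not called. The call of miR-200b-3p was lost under TMM (0.58) and total reads (0.63). In the other mixed clusters miR-30c-1-3p and miR-99a-5p (1.24) were the members not called.

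Lists of miRNAs with opposite reported roles in growth were read side by side, with no test of a difference between them. The colorectal oncogenic list had 14 tested miRNAs of 23 counted, and 14 rose (median 4.94), against 42.6% risen and a median of 0.72 over all tested. The 14 hold both arms of mir-21, mir-221 and mir-222 and the miR-182, miR-96 and miR-183 cluster, so they are not independent. Members low in the empty libraries could pass the filter only through the other groups. Such were miR-96-5p (7.64) and miR-135b-5p (6.2), with 1 read or none in each empty library. miR-222-3p, which represses the cell cycle inhibitor CDKN1B, went from 129, 130 and 105 to 4069, 3321 and 1844 scaled reads. Its cluster mate miR-221-3p went from 74.5, 54.2 and 64.4 to 3152, 3056 and 1706. In both the groups were far apart. miR-182-5p, a repressor of FOXO genes, went from 55.7, 38.3 and 31.9 to 2459, 2443 and 1338, and its cluster mate miR-183-5p rose by 5.48. Of the 14, 13 rose under TMM, DESeq2's median ratios and total reads, and without wild type replicate 2.

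On the list of miRNAs that restrain growth, 18 of 32 counted were tested and 18 rose (median 4.0), against 42.6% risen and a median of 0.72 over all tested. Many of the 18 are let-7 miRNAs of nearly the same sequence, so they are not independent of each other. Members low in the empty libraries, such as miR-503-5p with no read there, could pass the filter only through the other groups. All 18 rose also under each other scaling, and 17 without wild type replicate 1. let-7f-5p went from 128, 79.3 and 94.9 to 1955, 2009 and 1305, and let-7g-5p from 76.7, 43.1 and 43.8 to 1897, 1903 and 1284. miR-26a-5p, a repressor of EZH2, went from 53.4, 41.0 and 50.5 to 1576, 1157 and 1024 (4.69, SE 0.36, adjusted p = 8.19e-20). The groups did not overlap for these 3. The lowest change on the list was that of let-7c-5p, 2.24.

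The smaller lists hold 3 to 6 tested miRNAs each, to be read beside the 42.6% risen over all tested. Of 9 counted p53-linked miRNAs 3 were tested, and all 3 rose. These were miR-34a-5p, miR-107 (15.0, 9.04 and 12 against 439, 698 and 370) and miR-192-5p (3.76, 0.695 and 3.32 against 29.7, 37.8 and 12.4). Without a read in the empty libraries, miR-34a-5p could pass the filter only through the other groups. Of 9 counted miRNAs tied to hypoxia and metabolism 4 were tested, and all 4 rose. They include miR-378a-3p of PPARGC1B (57.2, 41.0 and 45.1 against 1585, 1925 and 986) and the hypoxia-induced miR-210-3p (5.27, 4.17 and 3.98 against 35.7, 23.4 and 15.8). miR-107 and miR-103a-3p, from PANK introns, share the seed GCAGCAU and are nearly the same, so the division of their reads is uncertain. Of 4 counted LINE2-derived miRNAs 3 were tested and all 3 rose, miR-28-3p and miR-28-5p and miR-151a-3p (193, 152 and 150 against 4966, 4515 and 2752).

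On the epithelial list 3 of 6 tested rose (median 1.15), near the 42.6% risen over all tested (median 0.72). The count was 1 under TMM and total reads and 2 under DESeq2's median ratios and without empty replicate 2. miR-203a-3p, known for repressing TP63 in skin, rose from 3.01, 4.17 and 5.31 to 124, 212 and 103 scaled reads. miR-200c-3p, in contrast, had 51.9, 45.2 and 39.2 against 67.8, 73.8 and 49.6, with overlapping groups and no call (0.48). Of 6 snoRNA- or tRNA-derived miRNAs 0 were called by edgeR or DESeq2, with 1 at an unadjusted p under 0.05. Their median was 0.40, and it was negative under TMM, DESeq2's median ratios and total reads (-0.46, -0.24 and -0.38). miR-664a-3p of that list (41.4, 84.2 and 80.3 against 69.0, 176 and 122) had an adjusted p of 0.0643 and was called higher without wild type replicate 1 (0.0183), when 2 of 7 on the list rose, and with miR-320 left out of the reference (0.0495).

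Markers of other cell types were read as well. Of 15 counted, 4 could be tested, and 2 rose, a share near the 42.6% over all tested: miR-126-3p of endothelium (12, 7.65 and 8.63 against 495, 412 and 273) and miR-9-5p of neurons (22.6, 19.5 and 18.6 against 74.9, 73.8 and 58.6). miR-122-5p of liver was lower in every wild type library (88.8, 80.0 and 67.7 against 34.5, 55.8 and 56.3) without a call (-0.69). miR-143-3p of smooth muscle overlapped between groups (-0.25). Both were called lower under TMM, DESeq2's median ratios and total reads. Whether other cells have a part in these values was not tested.

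Reads were also summed over miRNAs with the same seed, since these share targets. Of 235 seeds tested, 85 rose (36.2%) and 4 fell (1.7%), and 30 were within 2-fold (12.8%). The GAGGUAG seed of let-7 and miR-98-5p, shared by 11 miRNAs, went from 810, 601 and 588 scaled reads to 35466, 29979 and 20397. These 3 of its carriers differ only outside the seed.
let-7i-5p: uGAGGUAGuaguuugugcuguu
let-7f-5p: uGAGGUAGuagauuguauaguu
miR-98-5p: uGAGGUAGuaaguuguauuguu
The GUAAACA seed, summed over miR-30a-5p, miR-30e-5p and miR-30c-5p, rose from 25.6, 36.9 and 28.6 to 1905, 3042 and 1524. miR-30d-5p is not in that sum and rose from 54.2, 45.2 and 45.8 to 1728, 1578 and 1129, a higher empty level than the sum's. The GCUACAU seed of miR-221-3p and miR-222-3p rose from 203, 184 and 169 to 7222, 6377 and 3550.

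The seeds with the highest levels changed with DROSHA. With the empty plasmid the highest was AAAGCUG, of miR-320b, miR-320c and miR-320d (58368, 44345 and 61344, against 44098, 33980 and 45536 with wild type), followed by those of miR-3615, miR-7706 and miR-7974. With wild type the highest was AGCUUAU of miR-21-5p, and the seeds of let-7, miR-7-5p, miR-10a-5p and miR-221-3p with miR-222-3p were in places 3 to 6. The CACAGUG seed of miR-216a-3p and miR-128-3p fell from 749, 480 and 466 to 161, 106 and 85.6 (-2.26, SE 0.38, adjusted p = 9.3e-07). That fall is miR-216a-3p's, since miR-128-3p rose from 15.8, 13.9 and 11.3 to 105, 70.2 and 60.9 (2.52). Seeds cover only miRNAs with a RefSeq sequence, which hold 51.6% of the tested scaled reads in the empty group and 75.6% in the wild type group, since miR-320a-3p is not among them, and sums and places of a seed can lack members such as miR-30d-5p.

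**Figure D5:**
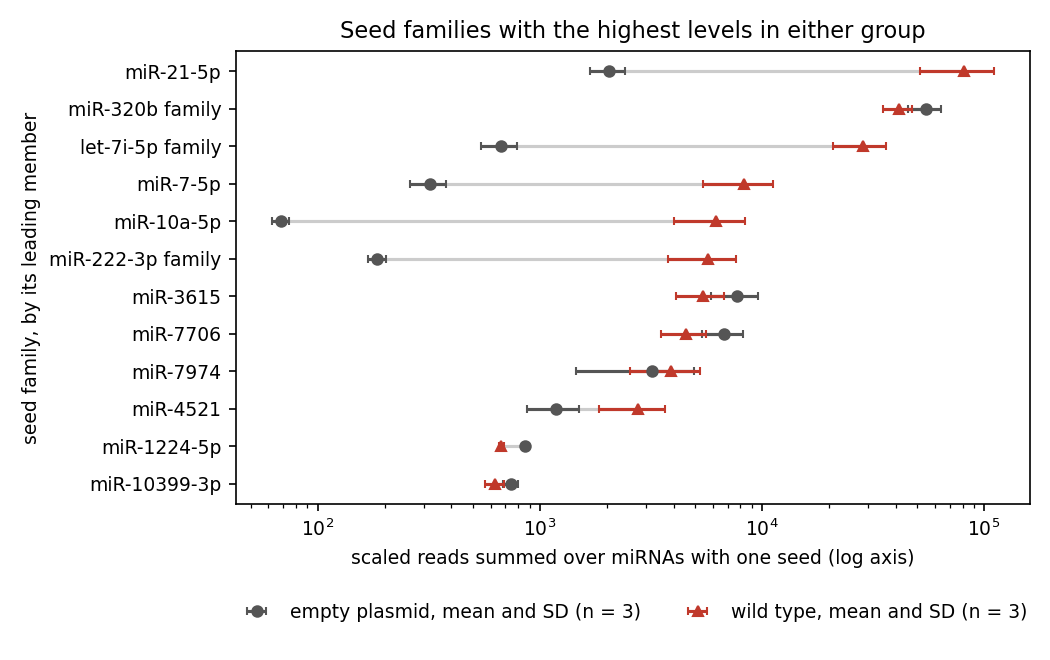
Scaled reads summed over miRNAs with 1 seed (horizontal, log axis) for the seed families highest in either group, as mean and SD of 3 libraries, named by the leading miRNA. The miR-21-5p, let-7, miR-7-5p, miR-10a-5p and miR-222-3p families lie far to the right with wild type, whereas those of miR-320b, miR-3615, miR-7706 and miR-7974 overlap between the groups.

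The miRNAs that rose and those not called also differed in letters. The first base was U in 64 of 120 risen miRNAs with a sequence (53.3%) and G in 4 (3.33%). Of 149 not called it was U in 65 (43.6%) and G in 20 (13.4%). The median GC content was 47.8% for the risen and 59.1% for those not called. These are descriptions of the sequences, with no test.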

How the data were processed

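Per the labels' protocols, RNA of 19 to 24 nt was selected on a 15% gel from 10 µg of TRIzol-extracted total RNA and turned into libraries with NEBNext reagents for small RNA. In the deposited table the authors give raw counts of reads per mature miRNA and hairpin. The submitters' processing notes name cutadapt, Bowtie2 and hg38. The counter, annotation and treatment of reads that match several hairpins are not given in the sources used here.

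Blank cells (7220 of 16908) were read as 0. Of 1409 lines, those of 1 miRNA name were collapsed to the most abundant line. Names with like reads, 9 pairs in all, were merged (within 5 reads or 5% per library, over at least 120 reads), which left 1277 miRNAs. Size factors were the median ratio to the geometric mean of 5 DROSHA-independent features. They were 1.33, 1.44 and 1.51 for the empty libraries and 0.841, 0.556 and 0.887 for wild type.

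edgeR 4.0.16 (R 4.3.3; filterByExpr, robust quasi-likelihood F test, Benjamini-Hochberg over 310 miRNAs) was fitted to all 12 libraries without covariates, so that the 4 groups share the estimate of spread. The SE is the log2 change over the square root of F. The test was checked on simulated counts. DESeq2 1.42.0, other scalings, no filter, other ways of collapsing, a replicate block and each library left out were tried as alternatives. Table totals were 217141 to 372985 reads, and counting error limits miRNAs near the floor of 3 reads. The exact interval of miR-96-5p and the floors cover counting error only, and PCR copies are not independent molecules. The 95% intervals of the log2 changes use the SE and so the spread between libraries. The tolerances for intron ends and transcript starts were set after values had been seen. Seeds and positions use RefSeq (GRCh38.p14, 1140 of 1277 miRNAs matched) and GENCODE 29.

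miRNAs named by rule were the 8 largest rises with at least 100 scaled reads and no overlap, every fall, the 10 most abundant in each group, the 8 most abundant within 2-fold, up to 6 with no empty read, the 5 smallest rises with at least 100 scaled reads, the DROSHA-independent list and up to 4 per list. Other named miRNAs were chosen after their values were seen. Members, lists and tests were chosen with earlier results of these data known.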

Additional observations from a re-analysis of the deposited data

How the results depend on the processing

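The same 68 named miRNAs, the counts and the share of reads were followed under each alternative. Calls rest on a scale taken from 5 DROSHA-independent features, and whether these were equal per cell in both groups was not tested. edgeR's TMM, DESeq2's median ratios and total reads moved the median of all miRNAs by -0.86, -0.66 and -0.82, and the summed reference moved it by 0.39. Rises were then 125, 126, 123 and 137 (132 with the chosen scale), and all 125, 126 and 123 are among the 132. Rises made up 98.5% of calls with miR-320 left out of the reference and 57.3%, 64.9% and 63.4% under TMM, median ratios and total reads. Falls were 93, 68, 71 and 1 (2 with the chosen scale), and miRNAs within 2-fold 8, 14, 3 and 10 (39). Seeds that fell were 76, 52, 59 and 1 (4).

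With no filter, 198 of 1277 miRNAs rose, and 132 seeds rose and 1 seed fell. Leaving out each library in turn also changed the filter, and 345 to 356 miRNAs were tested in place of 310. These fits gave 138 to 144 rises, 1 to 7 falls and 22 to 32 miRNAs within 2-fold. Of the seeds 83 to 94 rose and 1 to 7 fell. The difference in DROSHA-independent share of reads was -50.2 to -40.5 points without 1 library and -29.5 without the 3 most abundant other miRNAs. Without wild type replicate 1 the falls rose from 2 of 310 to 7 of 345 tested. The cause was not tested for any of these. Of the 68 named miRNAs, 18, 17 and 18 gained a call and 2, 1 and 3 lost one under TMM, median ratios and total reads without a change of sign. With DESeq2 2 gained and 1 lost a call.

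Some changes that were not called with the chosen scale changed sign. Under TMM these were miR-1226-3p (-0.041), miR-664a-3p (-0.06), miR-1229-3p (-0.155), miR-200a-3p (-0.175), miR-3182 (-0.29), miR-200c-3p (-0.40), miR-1226-5p (-0.55), miR-7974 (-0.57) and miR-1843 (-0.85), of which miR-1226-5p and miR-1843 were called lower. Under DESeq2's median ratios they were miR-3182 (-0.057), miR-200c-3p (-0.18), miR-1226-5p (-0.35), miR-7974 (-0.36) and miR-1843 (-0.635, called lower). With total reads they were miR-200a-3p (-0.12), miR-1229-3p (-0.13), miR-3182 (-0.21), miR-200c-3p (-0.34), miR-1226-5p (-0.49), miR-7974 (-0.51) and miR-1843 (-0.79). With the summed reference they were miR-664a-5p (0.002), miR-320a-3p (0.014), miR-1224-5p (0.028), miR-484 (0.083), miR-877-3p (0.13), miR-10399-3p (0.16), miR-143-3p (0.18), miR-3928-3p (0.20), miR-877-5p (0.31), miR-1291 (0.33) and miR-1292-5p (0.35). Without miR-320 in the reference they were miR-1291 (0.003) and miR-1292-5p (0.017).

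Without 1 library in turn the sign varied for miR-1292-5p (-0.193 to 0.124), miR-1843 (-0.165 to 0.269), miR-1291 (-0.111 to 0.141), miR-7974 (-0.031 without wild type replicate 1 to 0.828), miR-877-5p (-0.177 to 0.073) and miR-320e (-6.485 without wild type replicate 3 to 2.074 without empty replicate 1).

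With the replicate number as a block, 132 miRNAs rose and 2 fell, and the call of none of the 68 changed. Deviations of libraries with the same number correlated at -0.06, 0.09 and -0.03, so the numbers were not taken as pairs.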
